A study of Mus musculus with 14 samples.

Results

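The HOX genes are the homeobox transcription factors that the mouse genome carries in 4 clusters, HOXA on chromosome 6, HOXB on chromosome 11, HOXC on chromosome 15 and HOXD on chromosome 2. The members described here are every gene whose symbol is Hox, a letter from a to d and a number. They were 40 gene IDs with 39 symbols among the 54532 gene IDs counted, since Hoxd4 stood under 2 IDs. By cluster, 11 symbols were HOXA, 10 HOXB, 9 HOXC and 9 HOXD.

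Genes of a cluster lie in the order in which they are used along the body. Low numbers (anterior paralog groups) are transcribed toward the head, and high numbers (posterior groups) toward the tail and the tips of limbs. Fibroblasts keep much of the HOX pattern of the body site they came from when they are cultured, which is why HOX transcripts are read as a record of positional identity. HOX proteins bind DNA together with cofactors of the PBX, MEIS and PKNOX families. Polycomb complexes hold silent HOX genes off, and trithorax-type methyltransferases such as KMT2A keep active ones on.

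RNA was sequenced from 3 cultures of senescent iMEFs, 3 cultures of control iMEFs, 4 Trf2-deleted livers and 4 control livers. The iMEFs are fibroblasts of mouse embryos that SV40 large T antigen had immortalized. All iMEFs had the genotype Trf2F/F;Rosa-CreER, in which loxP sites flank both copies of *Terf2* (the gene of the telomere protein TRF2), and a Cre recombinase activated by 4-hydroxytamoxifen (4HT) is expressed from the Rosa locus. Senescent iMEFs were harvested at day 7 after 4HT, and control iMEFs had been given the vehicle. Trf2-deleted livers came from Trf2F/F;Rosa-mTmG mice and control livers from Rosa-mTmG mice, and mice of both genotypes, which by the study's methods carried the mTmG reporter on both Rosa alleles, were given AAV8-Tbg-Cre and sampled 6 to 7 weeks later.

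Each group had limits as a model. Cells that received 4HT but kept *Terf2* were not analysed here, so 4HT or active Cre and *Terf2* loss cannot be told apart. The fibroblasts were grown from minced bodies of mid-gestation embryos without the visceral organs, and thus from many body sites at once. The TBG promoter directs Cre to hepatocytes, whereas the liver RNA was that of the whole organ. In such bulk RNA, fewer cells of a type and less RNA per cell cannot be told apart. The study calls the replicates biological and the iMEFs a cell line. Whether the iMEF cultures came from more than a single embryo or line is not given. The age of the mice is not given in the sources used here.

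Libraries held 15364450 to 20177401 reads in genes. *Terf2* was at 0.250 ± 0.048 CPM (counts scaled to library size) in senescent iMEFs and 38.3 ± 0.775 CPM in control iMEFs (SD, n = 3 each), and at 3.82 ± 1.12 CPM in Trf2-deleted livers and 12.6 ± 1.35 CPM in control livers (SD, n = 4 each). Of 14 fibroblast markers all matched, and they summed to 9830 to 12310 CPM in senescent iMEFs and 22970 to 25000 CPM in control iMEFs. Hepatocyte markers, 11 of 12 of which matched, summed to 99890 to 119700 CPM in Trf2-deleted livers and 91540 to 104400 CPM in control livers. Reads of the mitochondrial genome took 0.853%, 0.644% and 2.32% of senescent iMEF replicates 1, 2 and 3, against 0.599% to 0.736% of control iMEF libraries, so senescent replicate 3 stood apart.

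HOX reads numbered 5644 to 6603 per library in senescent iMEFs, 7558 to 8629 in control iMEFs, 87 to 145 in Trf2-deleted livers and 77 to 124 in control livers. These numbers limit the precision of every value below, as does the spread between libraries. Levels are TMM-normalized CPM divided by the exonic length of the gene in kilobases (CPM per kb), so that genes can be set beside each other.

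Fibroblasts transcribed all 4 clusters, with the posterior genes far in front. At least 1 read fell on 37 of the 40 gene IDs in senescent iMEFs and on 37 in control iMEFs. In senescent iMEFs 3 genes reached a mean of 10 CPM per kb (Hoxd13, Hoxa10 and Hoxa11), and in control iMEFs 4 did (Hoxa13 as well). Another 14 genes lay between 1 and 10 CPM per kb in senescent iMEFs and 9 in control iMEFs. Hoxd13, Hoxa10, Hoxa11 and Hoxa13 together made up 68.9% of the summed HOX level in senescent iMEFs and 76.5% in control iMEFs. All of them are posterior genes that pattern the limbs, and the 13 group, which acts in the hand and foot, is also needed for the genital tubercle and the hindgut.

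**Figure D1:**
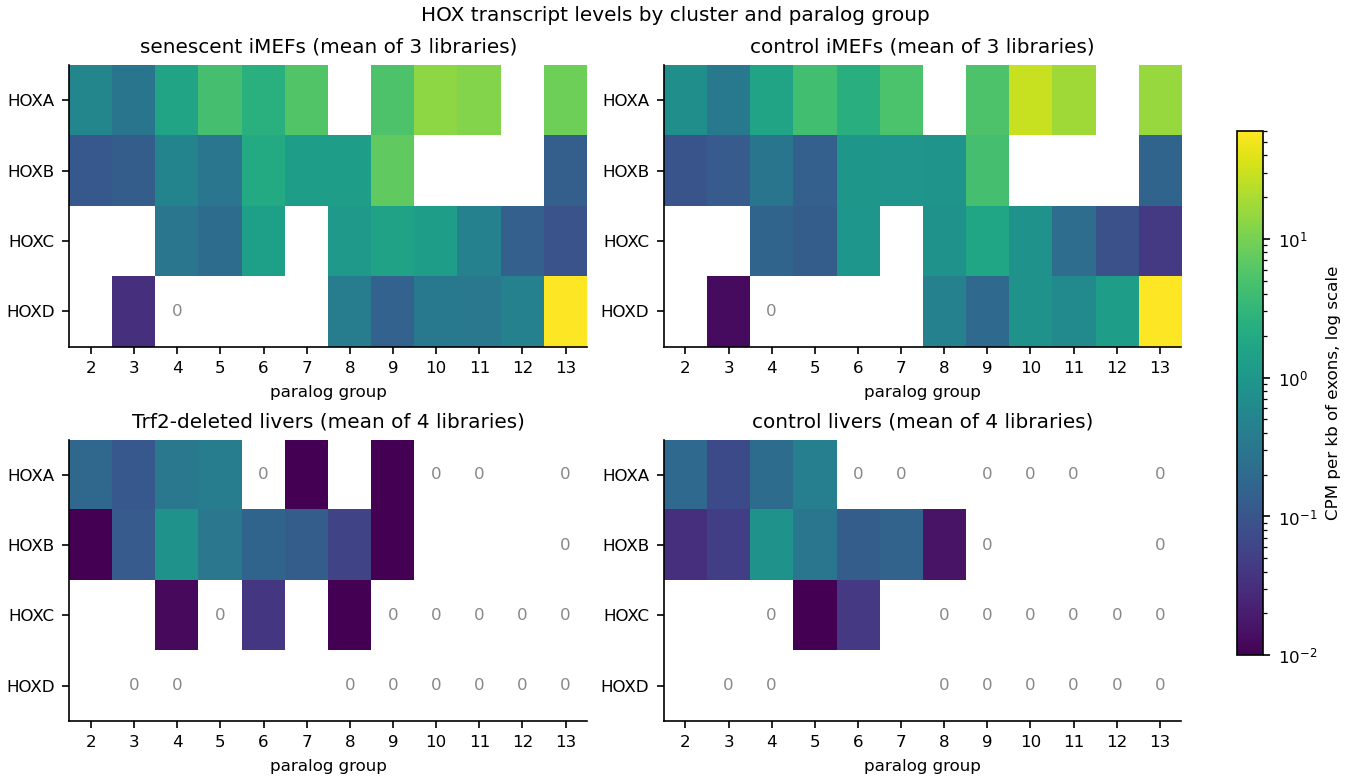
Mean level of each HOX gene in CPM per kb on a log color scale, with the cluster down the page and paralog groups 2 to 13 across it, in senescent iMEFs, control iMEFs, Trf2-deleted livers and control livers. A grey 0 marks a gene with 0 reads, a white cell with no 0 marks a gene that the cluster lacks, and levels under 0.01 are drawn as 0.01. The brightest cells of both iMEF groups are Hoxd13 and Hoxa10. Most of the liver signal sits in groups 2 to 5 of HOXA and 2 to 8 of HOXB, with little in HOXC, and the HOXD row is at 0.

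Hoxd13 was the most abundant HOX transcript in both iMEF groups. It had 59.9, 59.6 and 56.9 CPM per kb in senescent iMEFs, against 56.3, 59.5 and 63.0 CPM per kb in control iMEFs. The groups overlapped, and the difference was within the spread of the libraries. It alone made up 43.4% of the summed level in senescent iMEFs and 37.6% in control iMEFs.

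Promoter sequence is shown for members of the HOXA and HOXD ends, where genes that fell lie beside 1 that did not pass the test. Each sequence is the stretch of 200 bases just before a transcription start, 5′ to 3′ on the strand of the gene, from RefSeq on GRCm38.p6. Capitals mark a TATA box (TATAAA) or a PBX-HOX composite site (TGATTNAT), both searched on either strand.
Hoxd13, chr2:74668025-74668224, plus strand: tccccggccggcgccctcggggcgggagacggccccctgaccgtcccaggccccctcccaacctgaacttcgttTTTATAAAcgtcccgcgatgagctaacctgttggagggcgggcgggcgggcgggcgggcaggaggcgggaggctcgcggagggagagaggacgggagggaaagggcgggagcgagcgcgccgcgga
Hoxd12, chr2:74674813-74675012, plus strand: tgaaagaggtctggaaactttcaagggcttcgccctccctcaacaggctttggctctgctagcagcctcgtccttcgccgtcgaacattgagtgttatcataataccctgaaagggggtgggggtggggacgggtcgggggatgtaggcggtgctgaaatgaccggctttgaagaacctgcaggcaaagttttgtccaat
Hoxd11, chr2:74682123-74682322, plus strand: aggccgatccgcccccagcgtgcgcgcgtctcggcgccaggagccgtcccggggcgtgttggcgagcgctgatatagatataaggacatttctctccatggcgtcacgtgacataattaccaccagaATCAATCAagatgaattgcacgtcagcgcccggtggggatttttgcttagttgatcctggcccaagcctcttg
Hoxa10, chr6:52234940-52235139, minus strand: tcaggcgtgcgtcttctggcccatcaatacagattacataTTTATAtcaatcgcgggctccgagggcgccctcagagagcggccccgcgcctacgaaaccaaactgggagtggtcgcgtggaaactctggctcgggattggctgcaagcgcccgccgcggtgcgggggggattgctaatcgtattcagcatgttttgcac
Hoxa13, chr6:52260881-52261080, minus strand: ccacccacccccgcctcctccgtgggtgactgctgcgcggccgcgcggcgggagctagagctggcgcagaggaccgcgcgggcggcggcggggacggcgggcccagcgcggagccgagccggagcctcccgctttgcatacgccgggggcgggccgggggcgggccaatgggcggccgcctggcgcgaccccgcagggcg

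Hoxd11 and Hoxa10 each have 2 starts in the table, and 1 is printed for each. RefSeq starts were found for 22 of the 39 symbols, with 24 windows in all. In Hoxd13 the capitals hold a TATAAA on each strand that overlap each other, and 4 of the 24 HOX windows held TATAAA, against 9.96% of all 32851 windows of the same length. TGATTNAT stood in 2 HOX windows, those of Hoxd11 and Hoxa2, against 2.23% of all windows. The HOX13 sequence CCAATAAA was in 0 of the 24 windows and in 0.728% of all. Its other form CTCGTAAA was in 1, that of Hoxb8, and in 0.0791% of all. The direct repeat bound by retinoic acid receptors, with half-sites spaced by 5 bases, was in 0 HOX windows and in 0.00609% of all. The Hoxa13 window held 33 CG dinucleotides and that of Hoxd13 26, against a median of 8.5 over the HOX windows and 5 over all windows. Hoxd12 held 9, the printed Hoxd11 window 18 and the printed Hoxa10 window 19. These matches describe letters and not bound sites.

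Between senescent and control iMEFs, 8 of the 28 members tested passed the test, which is 28.6% of them, against 39.8% of the 13561 genes tested. Of these, 2 were higher (7.14% of members, 18.6% of all genes) and 6 were lower (21.4% of members, 21.2% of all genes). The shares of members called were thus near or under those of all genes. The median log2 fold change was 0.02 over the members tested and 0.00 over all genes tested. The other 12 gene IDs had too few reads to be tested. They were Hoxb1, Hoxb2, Hoxb13, Hoxc4, Hoxc5, Hoxc12, Hoxc13, Hoxd1, Hoxd3, Hoxd9 and both IDs of Hoxd4.

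The 6 members that fell were all posterior genes of HOXA or HOXD, and both that rose were HOXB genes. In HOXA 3 of 11 members tested fell and 0 rose, in HOXB 2 of 7 rose and 0 fell, in HOXC 0 of 5 passed the test, and in HOXD 3 of 5 fell and 0 rose. By number, 0 of 6 members of groups 1 to 4 passed and 1 of 10 in groups 5 to 8 rose. In groups 9 to 13, 1 of 12 rose and 6 fell. Over all genes tested 18.6% rose and 21.2% fell, and whether the calls follow cluster or number was not tested. A call also depends on read number. In control iMEFs Hoxa10, Hoxa11 and Hoxa13 had 2230 to 5322 reads, and Hoxd10 to Hoxd12 had 90 to 184. Members tested in groups 1 to 4 had 30 to 146. Every HOXB member tested had a fitted value above 0 and every HOXD member tested one below 0, including those that did not pass.

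**Figure D2:**
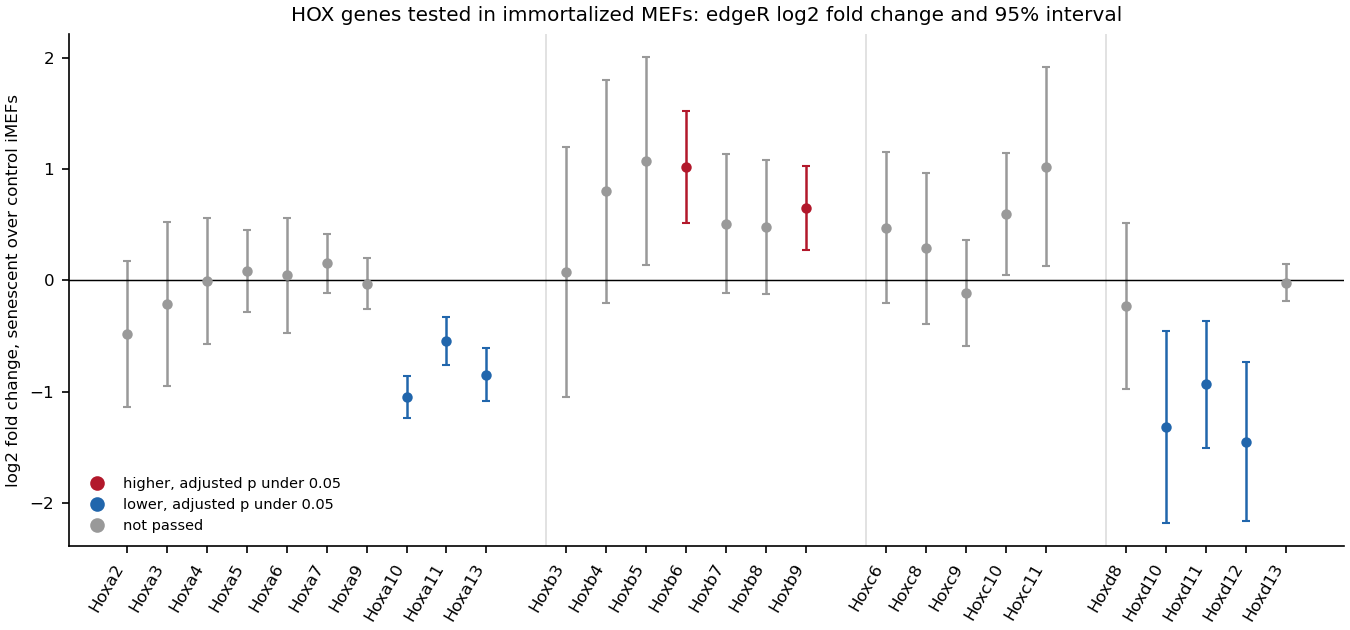
Log2 fold change of senescent over control iMEFs for 27 of the 28 HOX genes tested, in order of cluster and paralog group, with its 95% interval from edgeR (3 libraries per group). Hoxb6 and Hoxb9 lie above 0, Hoxa10, Hoxa11, Hoxa13, Hoxd10, Hoxd11 and Hoxd12 lie below 0, and Hoxd13 lies on 0 with an interval of −0.18 to 0.14.

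Among the HOXA genes the posterior end fell. Hoxa10, a factor of limb, uterus and hindbody patterning, had 14.3, 14.4 and 12.7 CPM per kb in senescent iMEFs, against 28.3, 29.6 and 27.8 CPM per kb in control iMEFs. Every senescent library lay far below every control library, and the senescent mean was 48.4% of the control mean. The log2 fold change was −1.05 (SE 0.085, adjusted p = 1.63e-06 by edgeR's quasi-likelihood test, Benjamini-Hochberg).

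Hoxa13, which patterns the digits and the genital tract, had 8.86, 9.96 and 7.54 CPM per kb in senescent iMEFs, against 15.1, 15.98 and 16.4 CPM per kb in control iMEFs. The groups did not overlap, and the log2 fold change was −0.85 (SE 0.11, edgeR Benjamini-Hochberg adjusted p = 7.09e-05). Hoxa11, which patterns the forearm and shank segment of the limb, had 12.2, 11.9 and 11.9 CPM per kb in senescent iMEFs, against 17.9, 19.1 and 15.5 CPM per kb in control iMEFs. Here too the groups did not overlap, with a log2 fold change of −0.55 (SE 0.099, edgeR Benjamini-Hochberg adjusted p = 0.000903).

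Hoxa11 shares 35.0% of its exonic bases with Hoxa11os, a noncoding RNA of the opposite strand. The strand setting of the counting is not given in the sources used here, so reads of the pair cannot be told apart there. Hoxa11os itself had 12.2 CPM in senescent iMEFs and 20.3 CPM in control iMEFs on average, a log2 fold change of −0.73 (edgeR Benjamini-Hochberg adjusted p = 0.00168). Hottip, a noncoding RNA next to Hoxa13, had 0.509 CPM in senescent iMEFs and 1.54 CPM in control iMEFs and fell by 1.58 on the log2 scale (edgeR Benjamini-Hochberg adjusted p = 0.00691). Of the 10 noncoding RNAs of the clusters that matched, 3 were tested, 2 fell and 0 rose, against 21.2% lower and 18.6% higher among all genes tested. Hoxa10 and Hoxa13 share no exonic base with another annotated gene.

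The middle and anterior HOXA genes did not pass the test. Hoxa9, a factor of posterior trunk and blood stem cells, had 5.14, 4.75 and 5.82 CPM per kb in senescent iMEFs, against 5.49, 5.62 and 4.93 CPM per kb in control iMEFs. The groups overlapped, and the 95% interval of the log2 fold change was −0.26 to 0.20. Hoxa7 had 5.97, 5.27 and 5.72 CPM per kb in senescent iMEFs, against 4.72, 5.84 and 4.71 CPM per kb in control iMEFs, with an interval of −0.12 to 0.42. Hoxa5, a regulator of lung and thoracic development, had 4.80, 3.51 and 5.38 CPM per kb in senescent iMEFs, against 4.53, 4.62 and 3.801 CPM per kb in control iMEFs. Its groups overlapped as well, with an interval of −0.29 to 0.45. Hoxa6, which also patterns the thoracic skeleton, had 2.46, 2.16 and 2.82 CPM per kb in senescent iMEFs, against 2.40, 2.54 and 2.28 CPM per kb in control iMEFs, and again the groups overlapped.

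Hoxa2 to Hoxa4 were lower still, with means of 0.294 to 1.59 CPM per kb in senescent iMEFs and 0.340 to 1.61 CPM per kb in control iMEFs. Hoxa2, which specifies the second branchial arch, was the 1 member of this stretch whose groups did not overlap, at 0.480 to 0.614 CPM per kb in senescent iMEFs and 0.739 to 0.768 CPM per kb in control iMEFs. It did not pass the test (log2 fold change −0.48, edgeR Benjamini-Hochberg adjusted p = 0.225).

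In HOXD the neighbours of Hoxd13 fell while Hoxd13 did not pass the test. Hoxd12, a factor of the distal limb, had 0.487, 0.216 and 0.679 CPM per kb in senescent iMEFs, against 1.22, 1.47 and 1.12 CPM per kb in control iMEFs. Every senescent library lay below every control library, with a log2 fold change of −1.45 (SE 0.33, edgeR Benjamini-Hochberg adjusted p = 0.00408). These values rest on 23, 9 and 30 reads in senescent iMEFs and 56, 74 and 54 reads in control iMEFs.

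Hoxd11, which acts with Hoxa11 in the limb and kidney, had 0.280, 0.289 and 0.422 CPM per kb in senescent iMEFs, against 0.590, 0.599 and 0.710 CPM per kb in control iMEFs. The groups did not overlap, and the log2 fold change was −0.93 (SE 0.26, edgeR Benjamini-Hochberg adjusted p = 0.0139). Hoxd10 had 0.414, 0.201 and 0.411 CPM per kb in senescent iMEFs, against 0.517, 1.06 and 1.01 CPM per kb in control iMEFs. Its groups lay close together, since control replicate 1 was near the senescent libraries, and the log2 fold change was −1.32 (SE 0.40, edgeR Benjamini-Hochberg adjusted p = 0.0196).

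The calls of Hoxd10 and Hoxd11 depended on single libraries. By edgeR with Benjamini-Hochberg adjustment, Hoxd10 had an adjusted p of 0.0904 without control replicate 2, 0.0715 without control replicate 3 and 0.0692 without senescent replicate 2. Hoxd11 had 0.0509 without control replicate 3 and 0.0611 without senescent replicate 1. Both stayed lower in every such comparison. Hoxd10 and Hoxd11 also share 5.73% and 10.8% of their exonic bases with a gene model of the same strand, Gm28309.

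Hoxd13 itself had a log2 fold change of −0.02 (SE 0.075, 95% interval −0.18 to 0.14, edgeR Benjamini-Hochberg adjusted p = 0.852). Its interval lies above those of Hoxd12 and Hoxd11. The remaining HOXD genes were near the limit of detection. Hoxd8, the only other one tested, had means of 0.396 CPM per kb in senescent iMEFs and 0.462 CPM per kb in control iMEFs. Hoxd9 had 17 reads in senescent iMEFs and 24 in control iMEFs, Hoxd3 7 and 3, and Hoxd1 3 and 0. Both IDs of Hoxd4 had 0 reads in all 14 libraries. One ID shares 52.3% of its exonic bases with other genes of the same strand and the other is not in GENCODE M21, so this 0 is not read as absence of the transcript.

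**Figure D3:**
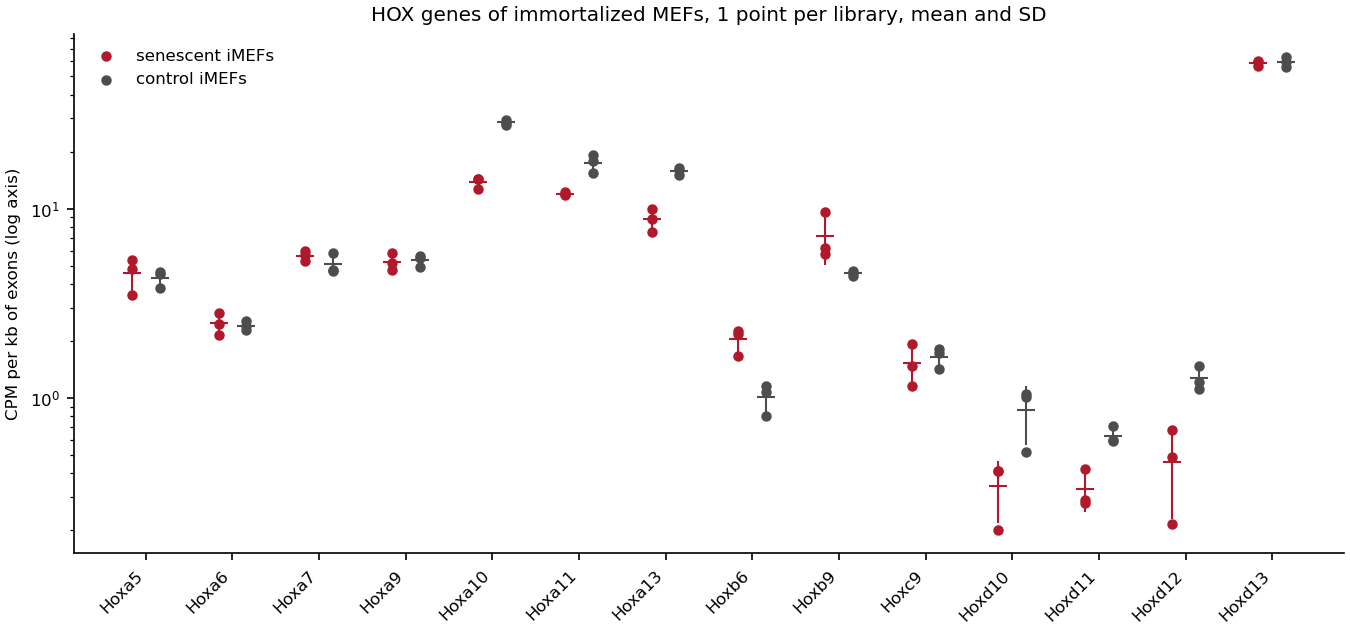
Level in CPM per kb on a log axis of the HOX genes that passed the test or were among the 10 most abundant of either group, in senescent iMEFs (red, left of each pair) and control iMEFs (grey, right). Points are libraries, and the bars give the mean and SD of 3. Hoxa10 averages 13.8 CPM per kb in senescent iMEFs and 28.5 CPM per kb in control iMEFs, whereas the points of Hoxd13 overlap.

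HOXB held both members that rose. Hoxb6, a gene of the trunk and limb mesenchyme, had 2.27, 1.68 and 2.19 CPM per kb in senescent iMEFs, against 1.15, 1.08 and 0.801 CPM per kb in control iMEFs. The groups did not overlap, and the log2 fold change was 1.02 (SE 0.23, edgeR Benjamini-Hochberg adjusted p = 0.0041). Hoxb9, a gene of the thoracic skeleton, had 5.73, 6.20 and 9.60 CPM per kb in senescent iMEFs, against 4.70, 4.57 and 4.42 CPM per kb in control iMEFs. All 3 senescent libraries were above all controls, replicate 3 by the most, with a log2 fold change of 0.65 (SE 0.17, edgeR Benjamini-Hochberg adjusted p = 0.0102). Without senescent replicate 3, the library with the high mitochondrial share, the value of Hoxb9 was 0.40 and that of Hoxb6 0.98, and both still passed.

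The other HOXB members tested did not pass. Hoxb5 had 0.308, 0.197 and 0.412 CPM per kb in senescent iMEFs, against 0.139, 0.181 and 0.113 CPM per kb in control iMEFs, from 45 reads in senescent and 23 in control libraries. The groups did not overlap, with an edgeR Benjamini-Hochberg adjusted p of 0.0651. Hoxb7 had means of 1.31 CPM per kb in senescent iMEFs and 0.926 CPM per kb in control iMEFs, Hoxb8 1.27 and 0.913, Hoxb4 0.512 and 0.292, and Hoxb3 0.131 and 0.123. Hoxb3 shares 52.9% of its exonic bases with the antisense Hoxb3os. Hoxb13, the posterior end of the cluster, had 16 reads in senescent iMEFs and 21 in control iMEFs.

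HOXC was transcribed at a low level, and 0 of its 5 members tested passed by edgeR's quasi-likelihood test. At an unadjusted p under 0.05, 11 of all 28 members passed by edgeR, of which Hoxc10 and Hoxc11 were HOXC genes. Of all 13561 genes tested, 39.8% passed even at an adjusted p under 0.05, so nothing particular to HOX genes is read from the 11. Hoxc9, a gene of the thoracic spinal cord, was the highest of the cluster in both groups. It had 1.48, 1.15 and 1.94 CPM per kb in senescent iMEFs, against 1.82, 1.72 and 1.43 CPM per kb in control iMEFs, with overlapping groups. Hoxc10, a gene of the lumbar region and hindlimb, had 1.32, 1.05 and 1.59 CPM per kb in senescent iMEFs, against 0.926, 0.819 and 0.879 CPM per kb in control iMEFs. The groups did not overlap, with a log2 fold change of 0.60 (95% interval 0.05 to 1.15, edgeR Benjamini-Hochberg adjusted p = 0.0788). Hoxc11 did not overlap either, at 0.301 to 0.653 CPM per kb in senescent iMEFs and 0.219 to 0.234 CPM per kb in control iMEFs, from 49 and 26 reads. In 10 of the 12 HOXB and HOXC members tested, senescent replicate 3 was the highest of the senescent libraries, and the part of its mitochondrial share in this was not tested.

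Summed over a cluster, HOXA was at 54.6 to 57.1 CPM per kb in senescent iMEFs and 78.6 to 86.3 CPM per kb in control iMEFs. HOXB was at 10.9 to 16.5 CPM per kb in senescent iMEFs and 7.61 to 9.01 CPM per kb in control iMEFs. HOXC was at 4.70 to 8.70 CPM per kb in senescent iMEFs and 4.35 to 5.73 CPM per kb in control iMEFs, and HOXD at 59.1 to 61.6 CPM per kb in senescent iMEFs and 59.3 to 66.4 CPM per kb in control iMEFs. HOXA sums were thus apart and lower in senescent iMEFs, HOXB sums apart and higher, and the HOXC and HOXD sums overlapped. As shares of the summed HOX level, HOXA took 41.0% ± 1.35 in senescent iMEFs and 51.9% ± 1.60 in control iMEFs, and HOXB 9.55% ± 1.99 and 5.198% ± 0.495 (SD, n = 3 each). HOXC took 4.75% ± 1.36 in senescent iMEFs and 3.17% ± 0.457 in control iMEFs, and HOXD 44.7% ± 2.04 and 39.7% ± 2.30. These shares add up to the whole, so a lower share of 1 cluster raises the others.

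**Figure D4:**
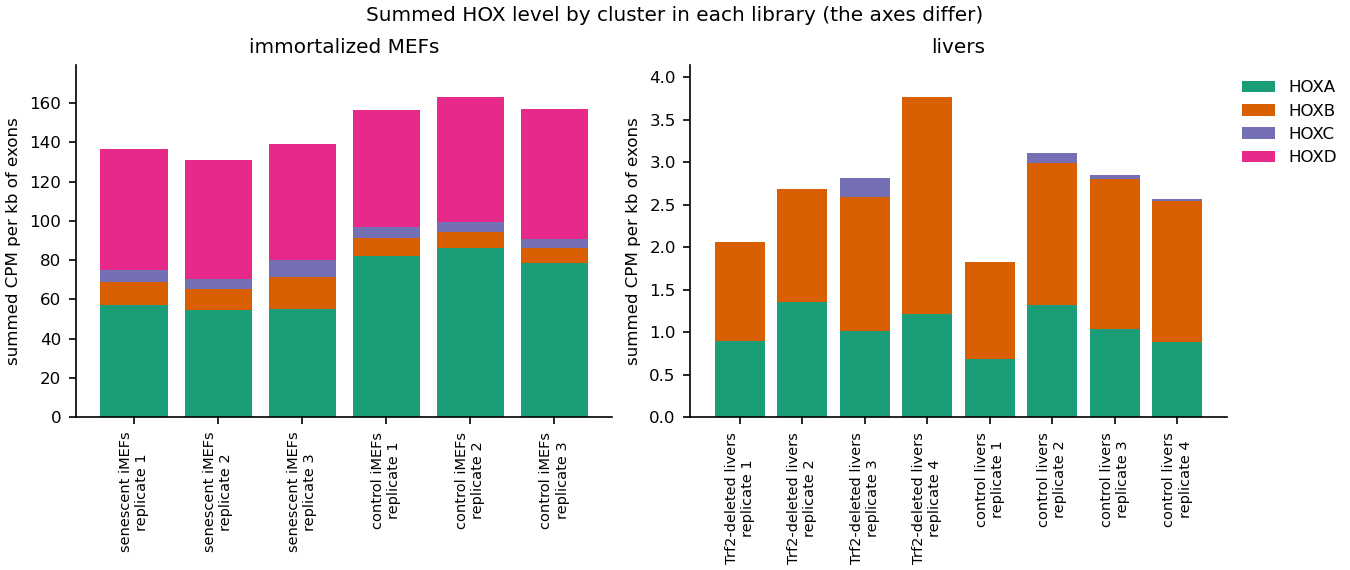
Summed HOX level in CPM per kb, stacked by cluster, for each library, with senescent left of control iMEFs in the left panel and Trf2-deleted left of control livers in the right panel. The totals average 136 CPM per kb in senescent iMEFs and 159 CPM per kb in control iMEFs, against 2.83 CPM per kb in Trf2-deleted livers and 2.59 CPM per kb in control livers, so the 2 axes differ.

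The order of the HOX genes by level was nearly the same in both iMEF groups. Across 39 gene IDs with a length, Spearman's rho between the mean levels of senescent and control iMEFs was 0.97. Single senescent and control libraries gave 0.91 to 0.96, against 0.97 to 0.98 between senescent libraries and 0.95 to 0.97 between control libraries. These are descriptions across genes, which are not independent replicates. The first 4 genes were the same in the same order, Hoxd13, Hoxa10, Hoxa11 and Hoxa13. Hoxb9 was in place 5 in senescent iMEFs and in place 7 in control iMEFs.

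Livers carried a different and much fainter HOX pattern. A read fell on 18 of the 40 gene IDs in Trf2-deleted livers and on 14 in control livers. HOXB took 57.4% ± 7.52 of the summed level in Trf2-deleted livers and 60.8% ± 4.92 in control livers, and HOXA 40.5% ± 8.08 and 37.7% ± 3.46 (SD, n = 4 each). HOXC had 9 reads in the 4 Trf2-deleted livers together and 8 in the 4 control livers. HOXD had 0 reads in all 8 livers, and a count of 0 allows up to 3 reads, or 0.174 to 0.195 CPM per gene in a Trf2-deleted library and 0.167 to 0.179 CPM in a control library, for counting error only.

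Hoxb4, known for its use in expanding blood stem cells, was the highest HOX gene of the liver. It had 0.699, 0.721, 0.794 and 1.21 CPM per kb in Trf2-deleted livers, against 0.630, 0.7999, 1.02 and 1.04 CPM per kb in control livers. Hoxa5 had 0.246, 0.352, 0.645 and 0.303 CPM per kb in Trf2-deleted livers, against 0.267, 0.437, 0.616 and 0.384 CPM per kb in control livers. Hoxb5, a gene of enteric and vascular mesenchyme, had 0.145, 0.190, 0.297 and 0.612 CPM per kb in Trf2-deleted livers, against 0.1601, 0.400, 0.524 and 0.120 CPM per kb in control livers. In each of these genes the groups overlapped over most of their range.

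These 3 alone had enough reads to be tested in livers, and 0 of them passed by edgeR's quasi-likelihood test, against 0.343% of the 14270 genes tested (0.308% higher and 0.035% lower). At an unadjusted p under 0.05 the count was 0 as well, and by DESeq2 it was 0 of 19 and by limma-voom 0 of 3. The log2 fold changes were −0.14 for Hoxa5 (95% interval −1.08 to 0.80), −0.03 for Hoxb4 (−0.66 to 0.60) and 0.05 for Hoxb5 (−1.19 to 1.30). The intervals of Hoxa5 and Hoxb5 include a fall of the size seen for Hoxa13 in iMEFs, so such a change was not detectable at this depth. Hoxa2 to Hoxa4, Hoxb3, Hoxb6 and Hoxb7 held most of the other reads, with 13 to 43 reads each in Trf2-deleted livers and 15 to 30 reads in control livers. Stellate cells and portal fibroblasts, which belong to the liver mesenchyme, had marker sums of 485 to 562 CPM in Trf2-deleted livers and 420 to 487 CPM in control livers, with 0 of 14 markers at 0. Which liver cells the HOX reads came from was not tested.

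**Figure D5:**
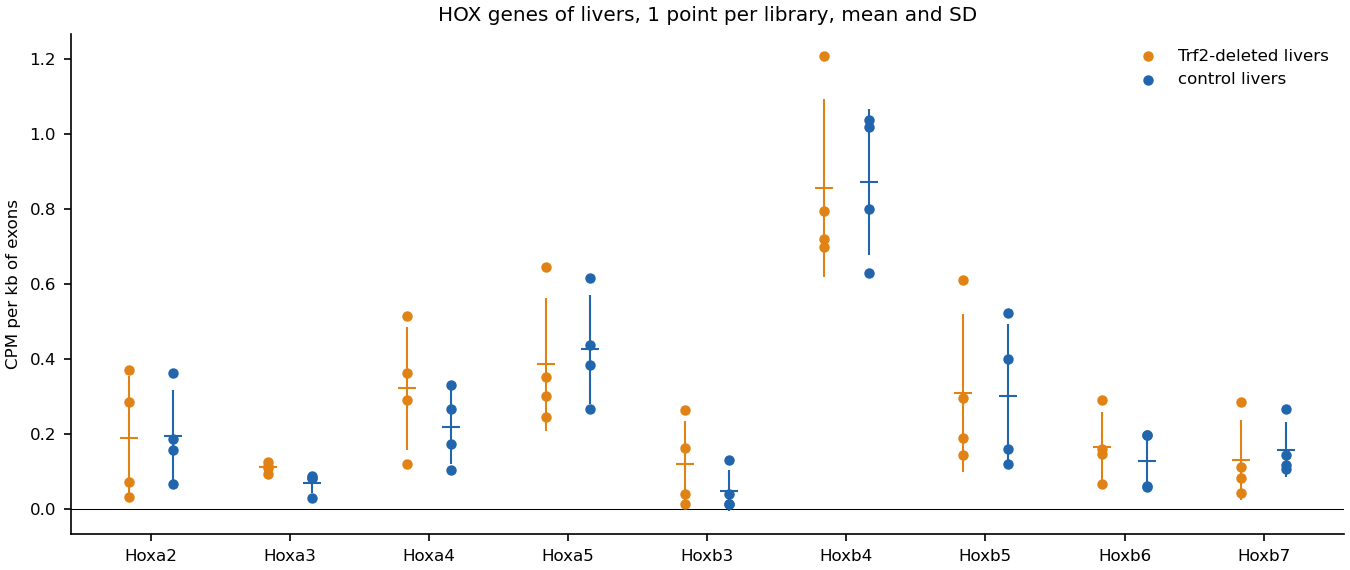
Level in CPM per kb of 9 HOX genes among those with the highest liver means, in Trf2-deleted livers (orange, left of each pair) and control livers (blue, right). Points are libraries, and the bars give the mean and SD of 4. Hoxb4 averages 0.855 CPM per kb in Trf2-deleted livers and 0.872 CPM per kb in control livers, and the points of the groups overlap except in Hoxa3, which had too few reads to be tested.

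Control livers served as a reference for the HOX pattern of control iMEFs. In a fit over all 14 libraries, 24 of 28 members were higher in control iMEFs (85.7%, against 39.5% of the 16503 genes tested) and 2 were lower (7.14%, against 44.6%), where 84.1% of all genes passed in either direction. Of the 24, 16 had 0 reads in control livers and 12 had 0 in all 8 livers. These 12 entered the test only through their reads in iMEFs, so a call of higher was fixed for them. Among the 24, Hoxa5 alone had enough reads to be tested within livers, so the others may also have entered through iMEFs. Nothing is read from the count of 24. Tissue, age of the donor, culture and immortalization cannot be told apart in this contrast. The 2 lower ones were Hoxb4, with 0.540 CPM in control iMEFs and 2.87 CPM in control livers, and Hoxb5, with 0.289 CPM in control iMEFs and 1.06 CPM in control livers. Their log2 fold changes were −2.40 and −1.87 (edgeR Benjamini-Hochberg adjusted p = 3.51e-05 and 0.00825). Hoxa2 and Hoxb3 did not pass the test (edgeR Benjamini-Hochberg adjusted p = 0.0772 and 0.63).

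The posterior genes had 0 reads in control livers, so their difference is a bound against 3 reads over the 4 libraries. Hoxd13 was at least 1911-fold higher in control iMEFs, Hoxa10 at least 1204-fold, Hoxa11 at least 517-fold and Hoxa13 at least 505-fold. Hoxa9 was at least 385-fold, Hoxa7 at least 189-fold and Hoxb9 at least 151-fold higher. Hoxb8 had 136 reads in control iMEFs and 3 in control livers, 30.8-fold in CPM with a 95% counting interval from 10.3 to 151. Across genes, the order of levels in livers bore little relation to that in iMEFs, with rho of 0.20 between senescent iMEFs and Trf2-deleted livers and −0.02 between control iMEFs and control livers.

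The change in iMEFs was also set against that in livers. The difference between the effects of Trf2 loss in iMEFs and in livers was past the threshold in 0 of 28 members by edgeR's quasi-likelihood test, against 10.3% of 16503 genes (4.4% higher and 5.91% lower), with 0 at an unadjusted p under 0.05 and 0 of 38 by DESeq2. Since every member that fell in iMEFs had 0 reads in all 8 livers, this test could not have found a difference for them.

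Other genes that carry positional identity moved in both directions in iMEFs. Of 50 such transcription factors 39 were tested, 7 rose (17.9%, against 18.6% of all genes tested) and 17 fell (43.6%, against 21.2%), with a median log2 fold change of −0.20. Prrx2, a limb mesenchyme factor, had 40.1 CPM in senescent iMEFs and 84.0 CPM in control iMEFs (log2 fold change −1.07, edgeR Benjamini-Hochberg adjusted p = 2.74e-06). Foxc2 and Foxf2, mesenchymal forkhead factors, rose by 1.05 and 0.85 on the log2 scale (edgeR Benjamini-Hochberg adjusted p = 4.32e-06 and 0.00018).

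Pitx1, which specifies the hindlimb, had 29.2 CPM in senescent iMEFs and 51.0 CPM in control iMEFs (log2 fold change −0.81, edgeR Benjamini-Hochberg adjusted p = 0.000112). Tbx4 and Tbx5, named here after their values were seen, are the T-box factors of hindlimb and forelimb. Tbx4 had 31.5 CPM in senescent iMEFs and 36.4 CPM in control iMEFs and did not pass the test (edgeR Benjamini-Hochberg adjusted p = 0.103). Tbx5 had 2 reads in senescent iMEFs and 2 in control iMEFs. Reads of the hindlimb factor were thus plentiful in both iMEF groups, and those of the forelimb factor were at the limit of detection.

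The list of TALE homeodomain genes had 11 members tested, of which 2 rose (18.2%, against 18.6% of all genes) and 4 fell (36.4%, against 21.2%). Besides the PBX, MEIS and PKNOX cofactors, it holds Tgif1 and Tgif2. Pknox2 had 17.7 CPM in senescent iMEFs and 53.7 CPM in control iMEFs (log2 fold change −1.60, edgeR Benjamini-Hochberg adjusted p = 3.06e-07). Pbx2 fell by 0.32 on the log2 scale, while Pbx4 and Tgif1 rose by 1.08 and 0.60 (edgeR Benjamini-Hochberg adjusted p = 0.0161, 0.00584 and 9.72e-05).

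The list of Polycomb repressors, which also holds Ctcf, had 28 genes tested. Of these 8 rose (28.6%, against 18.6% of all genes) and 6 fell (21.4%, against 21.2%), with a median log2 fold change of 0.03. Phf19, a PRC2 accessory factor, had 36.4 CPM in senescent iMEFs and 18.6 CPM in control iMEFs (log2 fold change 0.97, edgeR Benjamini-Hochberg adjusted p = 1.91e-05). The PRC1 genes Cbx6, Phc1 and Cbx2 fell by 0.53, 0.56 and 0.51 on the log2 scale (edgeR Benjamini-Hochberg adjusted p = 0.000199, 0.00034 and 0.00259). Of the trithorax and related activators 16 were tested, 1 rose (6.25%, against 18.6% of all genes) and 3 fell (18.8%, against 21.2%), so both shares were under those of all genes. Kmt2a, the methyltransferase that keeps HOX genes active, had 71.7 CPM in senescent iMEFs and 98.5 CPM in control iMEFs (log2 fold change −0.46, edgeR Benjamini-Hochberg adjusted p = 0.00577). Its partner Men1 fell by 0.31 and Kmt2d by 0.38 on the log2 scale, and Mllt3 rose by 0.28 (edgeR Benjamini-Hochberg adjusted p = 0.00904, 0.0141 and 0.0244).

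Retinoic acid induces HOX genes from the anterior end, and CDX factors act on the posterior end. Of 21 genes of these inputs 15 were tested, 2 rose (13.3%, against 18.6% of all genes) and 7 fell (46.7%, against 21.2%), with a median log2 fold change of −0.49. Both cellular retinoic acid binding proteins fell. Crabp2 had 70.0 CPM in senescent iMEFs and 159 CPM in control iMEFs, and Crabp1 had 56.5 CPM in senescent iMEFs and 121 CPM in control iMEFs (edgeR Benjamini-Hochberg adjusted p = 4.92e-06 and 2.45e-06). The receptors Rarg and Rara fell by 0.55 and 0.49 on the log2 scale (edgeR Benjamini-Hochberg adjusted p = 0.000327 and 0.000581). Cyp26a1, which degrades retinoic acid and is itself induced by it, had 2.52 CPM in senescent iMEFs and 0.915 CPM in control iMEFs, and Aldh1a3, which makes it, had 2.56 and 0.983 CPM (log2 fold changes 1.46 and 1.37, edgeR Benjamini-Hochberg adjusted p = 0.00198 and 0.00965). Cdx1 had 0 reads in senescent iMEFs and 8 in control iMEFs, and Cdx2 and Cdx4 had 0 in both.

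Fibroblast markers moved at the same time. Of 13 tested 10 fell (76.9%, against 21.2% of all genes) and 1 rose (7.69%, against 18.6%), with a median log2 fold change of −1.33. Col3a1, Col1a2, Col6a1 and Col1a1 fell by 2.87, 2.05, 1.71 and 2.01 on the log2 scale (edgeR Benjamini-Hochberg adjusted p = 5.28e-09, 3.67e-07, 7.91e-07 and 7.94e-07), and Dcn rose, with 22.2 CPM in senescent iMEFs and 10.3 CPM in control iMEFs (edgeR Benjamini-Hochberg adjusted p = 0.000377). The part of this in the HOX values was not tested. Skeletal muscle markers summed to 2.15 to 3.27 CPM in senescent iMEFs and 1.72 to 2.15 CPM in control iMEFs, with 3 and 4 of 10 markers at 0. Chondrocyte markers, of which 8 were listed, summed to 53.6 to 62.4 CPM in senescent iMEFs and 86.0 to 93.2 CPM in control iMEFs, and neural markers, of which 10 were listed, to 207 to 240 CPM and 196 to 217 CPM. Markers of other cell types were sparse or shared. In senescent iMEFs and control iMEFs endothelial markers summed to 13.7 to 19.4 CPM and 8.71 to 10.6 CPM, macrophage and leukocyte markers to 6.58 to 8.49 CPM and 4.04 to 4.69 CPM, and hepatocyte markers to 279 to 320 CPM and 170 to 183 CPM. Of the 11 hepatocyte markers matched, 9 were at 0 in senescent iMEFs and 8 in control iMEFs, so these sums rest on few genes. Cholangiocyte and epithelial markers summed to 1614 to 2092 CPM in senescent iMEFs and 1485 to 1763 CPM in control iMEFs.

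In livers, 88 genes of the cofactor, trithorax, Polycomb, retinoic acid and CDX, flanking and positional factor lists were tested, and 0 passed by edgeR's quasi-likelihood test, with 6 at an unadjusted p under 0.05. Since 0.343% of all genes passed in livers, this count says nothing particular to these lists.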

How the data were processed

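RNA was sequenced from 14 libraries (3 per iMEF group, 4 per liver group). The authors deposited raw counts of reads per gene, which the submitters' notes tie to STAR, featureCounts and mm10. The sources used here do not give versions, the strand setting or the annotation release. Tables of normalized values and columns of the authors' own comparisons were not used. Columns were matched to samples by name, and the 2 tables joined by Ensembl ID.

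Counts were filtered (filterByExpr), TMM-normalized and tested per tissue with edgeR 4.0.16 (quasi-likelihood, R 4.3.3, prior count 0.125), adjusted by Benjamini-Hochberg over all genes tested with a threshold of 0.05. The SE is the log2 fold change over the root of F. A fit over all 14 libraries gave the tissue contrast and the difference of effects. Levels were divided by exonic length from GENCODE M21 (GRCm38). Alternatives were DESeq2 1.42.0, limma-voom 3.58.1, RLE factors, no filter, a threshold of 0.01, a replicate block, plain CPM, and leaving out each library. Scripts were tested on simulated data. Values of each library are given for members that passed the test or were among the 10 highest per kb; of each list, at most 4 called genes with the smallest p and up to 2 of the minority direction are named. Members and lists were chosen with earlier results of these data known. The study calls replicates biological, and p-values measure the spread between these samples. For iMEFs this need not be the spread between embryos or lines. A few genes are left out of the text and figures. Intervals on reads cover counting error only.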

Additional observations from a re-analysis of the deposited data

Results flagged for a closer look

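The summed HOXC level was 0.231 CPM per kb in Trf2-deleted livers replicate 3 and 0 in the other 3 Trf2-deleted livers, so a single library lay far from the rest. It rests on the 9 HOXC reads of that group. With 0 in the other 3 Trf2-deleted livers, any read in a single library would have been flagged, so nothing is read from the distance.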

How the results depend on the processing

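All 8 members called in iMEFs were called as well by DESeq2, limma-voom, RLE factors and no filter on low counts. A threshold of 0.01 kept 5, of which 1 was higher, and lost Hoxb9, Hoxd10 and Hoxd11. Samples with the same replicate number did not deviate together throughout (correlations 0.01, −0.07 and −0.19 in iMEFs, and −0.01, −0.10, −0.05 and 0.28 in livers, where number 4 alone correlated best with its own), so the numbers were not taken as pairs, and a replicate block kept 7 calls and lost Hoxd10 (log2 fold change −1.29, edgeR adjusted p = 0.0507). Leaving out 1 library gave 2 to 4 members higher and 4 to 6 lower. Over all genes tested in iMEFs, the same fits gave 1624 to 2790 higher and 2168 to 3117 lower. Without senescent replicate 2, 4 members were higher, with Hoxb5 and Hoxc11 added (edgeR adjusted p = 0.0442 and 0.0448). Between control iMEFs and control livers, DESeq2 and no filter each called 30 members in place of 26, with Hoxb13, Hoxc4, Hoxc5 and Hoxd9 added, and leaving out 1 library lost 0 calls and added Hoxa2, Hoxc4 or Hoxc5 in some cases. Without division by length, HOXA took 44.4% in senescent iMEFs and 55.35% in control iMEFs, HOXD 42.6% and 37.1%, and HOXA 33.96% in control livers. Signs turned in results that were not called: Hoxa4 was 0.0078 with RLE factors and Hoxb3 −0.063 with limma-voom. With 1 library left out, 13 such results turned, 0 of them called. In iMEFs the log2 fold changes ran from −0.61 to 0.10 for Hoxa3, −0.30 to 0.14 for Hoxa4, −0.035 to 0.23 for Hoxa5, −0.044 to 0.13 for Hoxa6, −0.10 to 0.031 for Hoxa9, −0.59 to 0.43 for Hoxb3, −0.046 to 0.48 for Hoxc8, −0.31 to 0.039 for Hoxc9, −0.46 to 0.012 for Hoxd8 and −0.064 to 0.016 for Hoxd13. In livers they ran from −0.50 to 0.087 for Hoxa5, −0.24 to 0.068 for Hoxb4 and −0.50 to 0.46 for Hoxb5. The causes were not tested. Low read numbers limit Hoxd10 to Hoxd12, the anterior genes and every liver value.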

Other observations

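The genes that border the clusters were measured too. Of 11 tested in iMEFs 0 rose (against 18.6% of all genes tested) and 4 fell (36.4%, against 21.2%), with a median log2 fold change of −0.04. Calcoco1, which lies beside HOXC, had 27.3 CPM in senescent iMEFs and 50.8 CPM in control iMEFs (log2 fold change −0.89, edgeR Benjamini-Hochberg adjusted p = 2.85e-05). Cbx5, Skap2 and Cbx1, neighbours of HOXC, HOXA and HOXB, fell by 0.40, 0.44 and 0.26 on the log2 scale (edgeR Benjamini-Hochberg adjusted p = 0.00292, 0.00501 and 0.0204). Evx2, the homeobox gene next to Hoxd13 and named here after its value was seen, had 4.27 CPM in senescent iMEFs and 4.97 CPM in control iMEFs and did not pass the test (edgeR Benjamini-Hochberg adjusted p = 0.371).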
